A study of Bos taurus with 47 samples.

Results

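A group of 3 bovine genes stood far higher in morulae made by somatic cell nuclear transfer (scNT) than in morulae made by in vitro fertilization (IVF), and they are followed here from the starting cells to cells grown out of blastocysts. They are ENSBTAG00000046089, ENSBTAG00000012363 and ENSBTAG00000004891, 3 of the 20526 genes in the deposited table of normalized counts. They were chosen by their values in the morula libraries, so the difference between scNT and IVF morulae is given as a description with no test. Tests between groups were kept to libraries of the other stages, which took no part in that difference. The table gives genes by Ensembl identifier without a name, and 0 of the 3 identifiers matched the gene reference used here, so the genes are called by identifier and nothing is said of what they encode.

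The series held 47 mRNA libraries in 12 groups, 4 libraries in each except scNT morulae, with 3 (replicates 2, 3 and 4). IVF embryos came from oocytes matured in culture and fertilized with thawed semen of a Holstein bull, and were grown on a layer of bovine cumulus cells. scNT embryos came from enucleated oocytes that each received a fibroblast of a primary ear-skin culture, taken from a Brahma Spanish bull cross, at passage 4 or 5 and after a day in low serum. Pools of 20 embryos were collected on day 2 (2-cell), day 3 (8-cell), day 6 (morula) and day 8 (blastocyst). Blastocyst-derived cells of both methods, mature (MII) oocytes and fibroblasts completed the groups. The donor and the sire differed in breed, and scNT embryos carried the genome of a male donor, so method and parental genome cannot be told apart. No label ties a replicate to an animal or culture of its own, and the p-values here cover the spread among pools, possibly a technical one.

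Nuclear transfer asks the oocyte to turn a fibroblast nucleus into an embryonic one. In cattle the early cleavages run on RNA stored in the oocyte, and the embryo's own genome becomes widely active around the 8-cell to 16-cell stage. The morula then compacts and forms the blastocyst, in which an outer trophectoderm surrounds an inner cell mass. Transcripts missing from the oocyte that appear after this switch are generally products of the embryonic genome.

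The libraries held between 4608094 and 16642394 reads, as recovered from the steps of the deposited values, and the morula and blastocyst libraries between 4608094 and 8402710. In these bulk pools, more cells with a transcript and more transcript per cell cannot be told apart. There are 3 lists of other genes that describe the morula libraries. The rising list holds 1597 genes at least 2 log2 units higher in IVF blastocysts than in IVF 8-cell embryos. It had a mean level, as log2(normalized count + 1), of 7.20 to 7.51 in IVF morulae and 7.55 to 7.84 in scNT morulae. The falling list holds 2086 genes at least 2 log2 units lower over that interval. It had 7.14 to 7.51 in IVF and 5.93 to 6.69 in scNT morulae. The scNT morulae thus lay closer to blastocysts than the IVF morulae did in both lists, without overlap between the methods. The fibroblast-high list holds 564 genes at least 5 log2 units higher in fibroblasts than in oocytes. It had 4.61 to 5.29 in IVF and 4.95 to 5.31 in scNT morulae, ranges that overlapped. The part of any of these shifts in the values of the 3 genes was not tested.

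**Figure D1:**
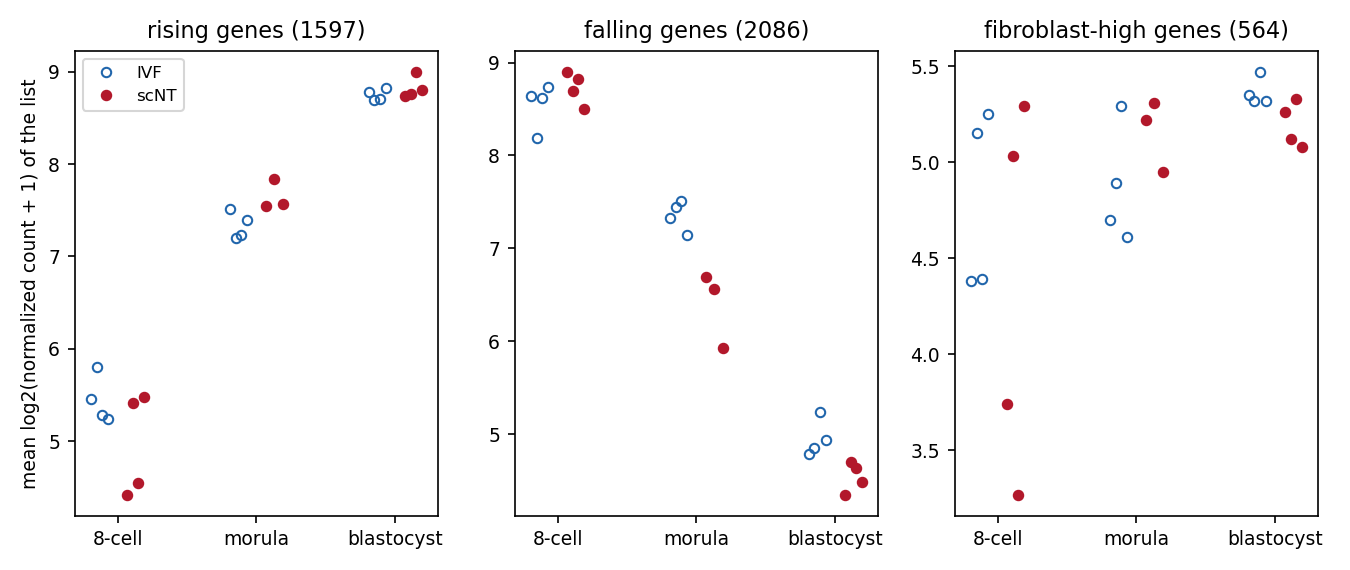
Mean log2(normalized count + 1) of the rising (1597), falling (2086) and fibroblast-high (564) gene lists, 1 point per library, for IVF (open blue) and scNT (filled red) embryos at 3 stages; the vertical axes differ between panels and do not start at 0. In morulae the falling list lay at 7.14 to 7.51 in IVF and 5.93 to 6.69 in scNT libraries.

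ENSBTAG00000046089 was all but silent before the morula and was 20.3 times as abundant in scNT as in IVF morulae. The scNT morulae held 349.0, 391.1 and 516.8 normalized counts in replicates 2, 3 and 4, a mean of 419 ± 87.3 (SD, n = 3). IVF morulae held 38.6, 16.3, 13.9 and 13.7 in replicates 1 to 4, a mean of 20.6 ± 12 (SD, n = 4). The lowest scNT library was 9.04 times the highest IVF library. On the log2(normalized count + 1) scale the difference was 4.40, the 4th largest toward scNT among 13590 genes measured in morulae, and leaving out 1 library at a time gave 4.23 to 4.73. Replicate 4 was the highest scNT library for this gene and for ENSBTAG00000012363 and the lowest for ENSBTAG00000004891. It had the lowest level of the falling list (5.93), while the rising list was highest in replicate 3 (7.84, against 7.57 in replicate 4).

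ENSBTAG00000012363 was likewise on in scNT morulae, where its mean was 8.36 times the IVF mean, and near 0 before them. The scNT morulae held 93.1, 98.4 and 160.2 normalized counts, a mean of 117 ± 37.3 (SD, n = 3). IVF morulae held 3.1, 1.5, 48.1 and 3.4, a mean of 14.0 ± 22.7 (SD, n = 4). IVF replicates 1, 2 and 4 were thus near the floor of detection and replicate 3 stood apart. The ratio of means was 44.0 without IVF replicate 3, whose removal left an IVF mean of 2.67 ± 1.02 (SD, n = 3). The log2 difference of 4.06, the 7th largest of the 13590, became 5.01 without that library.

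ENSBTAG00000004891 was present in every library of the series, and in morulae it was raised by a smaller factor with little spread. The scNT morulae held 163.7, 154.5 and 151.1 normalized counts, a mean of 156 ± 6.52 (SD, n = 3), against 35.5, 29.7, 39.6 and 48.0 in IVF morulae, a mean of 38.2 ± 7.69 (SD, n = 4). The ratio of means was 4.10, and the lowest scNT library was 3.15 times the highest IVF library. Its log2 difference of 2.03 ranked 52nd of the 13590. All 3 genes had every scNT morula library above every IVF one, which also held for 17% of the 13590 genes, while limma called 7.37% higher at an adjusted p under 0.05. Both shares belong to the comparison that chose the 3 genes, so nothing is read from them.

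**Figure D2:**
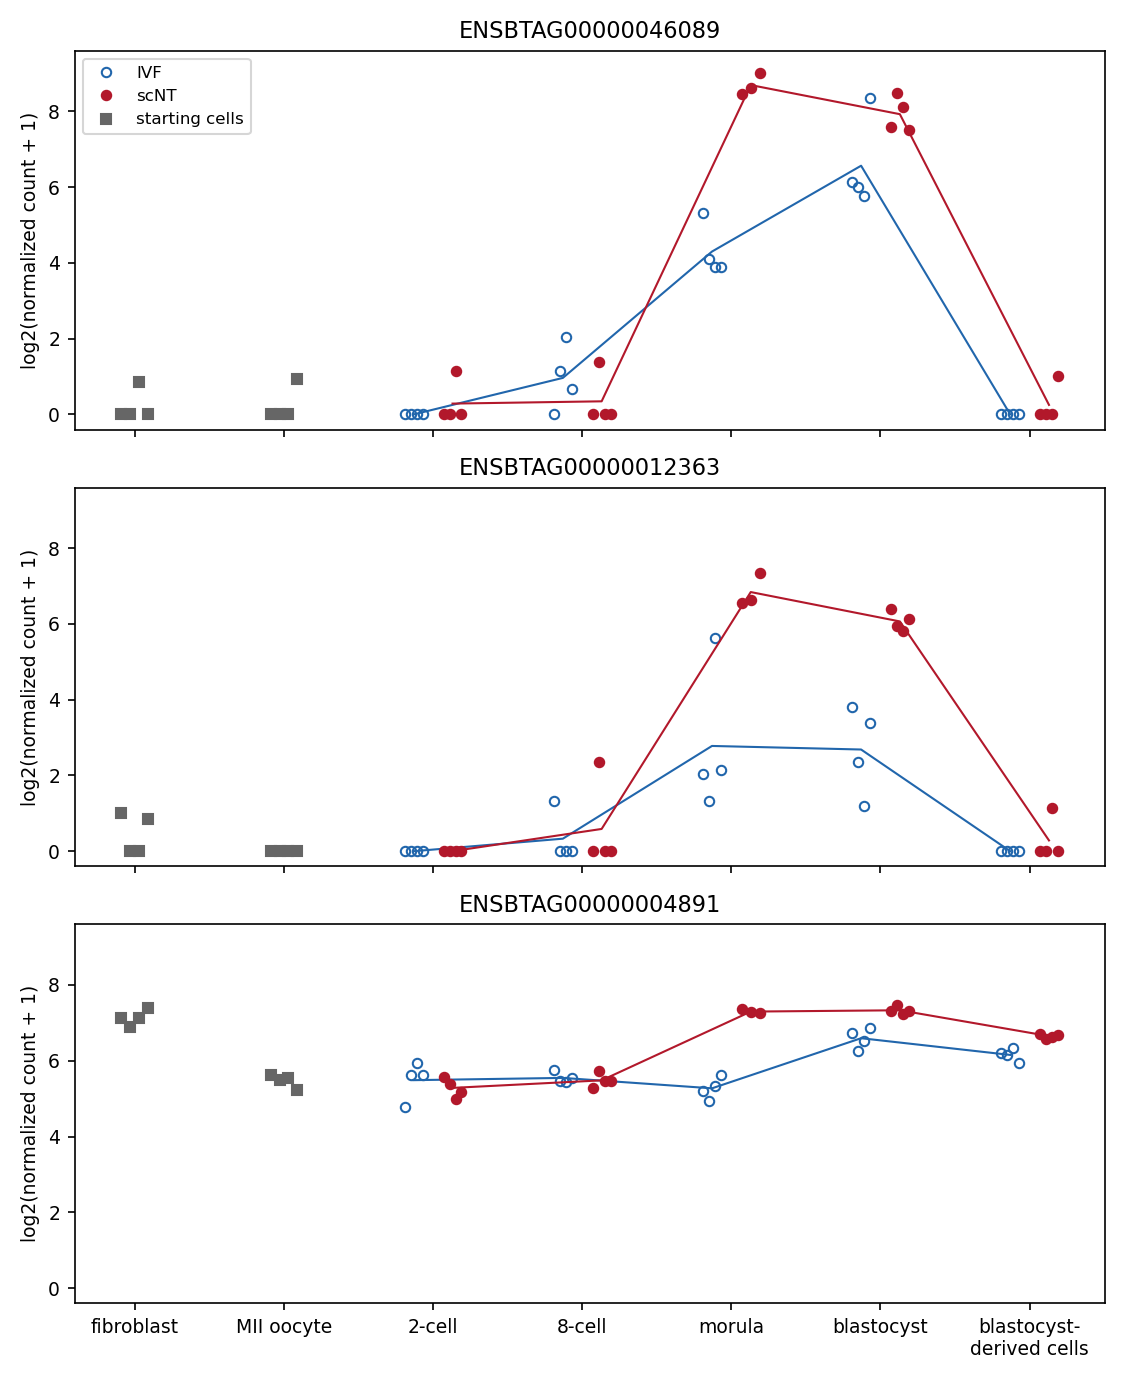
log2(normalized count + 1) of each gene in all 47 libraries, 1 point per library, for starting cells (grey squares), IVF (open blue) and scNT (filled red); lines join group means. ENSBTAG00000046089 and ENSBTAG00000012363 leave the baseline at the morula and return to it in blastocyst-derived cells, while ENSBTAG00000004891 is present throughout.

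The onset of each gene was then followed in each method. A gene was counted as on at a stage where every library of the group held at least 10 normalized counts. By this measure ENSBTAG00000046089 was on at 2 of 6 stages in both methods, the morula and the blastocyst. The stage of onset by this measure was the same in both methods. At a threshold of 50 the first stage was the morula in scNT and the blastocyst in IVF embryos.

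Before the morula this gene gave 5 reads or fewer in any group. Oocytes held 1 read over 4 libraries, fibroblasts 1, scNT 2-cell embryos 1 and scNT 8-cell embryos 2. IVF 2-cell embryos held 0 reads, which allows up to 0.0601 RPM (reads scaled to library total), and IVF 8-cell embryos held 5. The fibroblasts, from the culture that supplied the transferred nuclei, thus gave no more than a single read. Such limits, and the exact 95% counting intervals of read ratios, cover counting error only, since reads of amplified libraries are not independent molecules.

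ENSBTAG00000012363 was on at 2 stages in scNT embryos, again the morula and the blastocyst, and at 0 of 6 stages in IVF embryos. In IVF embryos 1 of 4 morula libraries and 1 of 4 blastocyst libraries reached 10 normalized counts. Oocytes and the 2-cell embryos of both methods held 0 reads, which allows up to 0.0601 RPM in IVF and 0.0741 in scNT 2-cell embryos. Fibroblasts held 2 reads over 4 libraries, IVF 8-cell embryos 2 and scNT 8-cell embryos 5, all 5 in replicate 2. The oocyte's stored RNA thus held no read of this gene and 1 read of ENSBTAG00000046089.

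ENSBTAG00000004891 was on from the oocyte onward at all 6 stages in both methods. Fibroblasts held 138.9, 117.5, 138.6 and 166.2 normalized counts, a mean of 140 ± 20.0 (SD, n = 4), and oocytes 48.7, 44.3, 46.0 and 36.2, a mean of 43.8 ± 5.38. At a threshold of 50 the first stage was the morula in scNT and the blastocyst in IVF embryos, as for ENSBTAG00000046089. For this gene, then, the morula was not the stage of first appearance.

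Its levels in 2-cell and 8-cell embryos lay near those of oocytes, and no difference between methods passed the test. The 2-cell means of ENSBTAG00000004891 were 45.6 ± 13.9 in IVF and 38.4 ± 6.90 in scNT embryos, and the 8-cell means 45.9 ± 4.80 and 44.0 ± 5.63 normalized counts (SD, n = 4 each). Its scNT minus IVF difference was -0.20 log2 units at the 2-cell stage (limma, 95% interval -0.85 to 0.45, adjusted p = 0.851). It was -0.06 at the 8-cell stage (95% interval -0.64 to 0.51, limma adjusted p = 0.893). Of all genes tested, limma called 0.0328% at the 2-cell and 0% at the 8-cell stage. Among 8-cell embryos 1642 genes had an unadjusted limma p under 0.05, and 378 genes were called by DESeq2, 0 by edgeR, while limma with the replicate number as a block called 168. The other 2 genes were too low to be tested at these stages.

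Against oocytes the 8-cell level of ENSBTAG00000004891 did not pass the test in either method. The log2 difference was 0.07 in IVF (95% interval -0.44 to 0.58, limma adjusted p = 0.837) and 0.01 in scNT embryos (95% interval -0.50 to 0.51, limma adjusted p = 0.989). Both comparisons use the same oocyte libraries. Limma called 34.6% and 18.7% of all genes in them.

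Blastocysts gave a comparison between methods in libraries that took no part in choosing the genes. ENSBTAG00000004891 was called higher in scNT blastocysts, where limma called 2.53% of 12607 genes higher, or 1.4% with libraries scaled to equal totals. That scaling moved the higher genes from 42.5% to 15.8% of all calls and kept this gene called. ENSBTAG00000012363 held 82.9, 60.4, 55.2 and 68.6 normalized counts in scNT blastocysts, a mean of 66.8 ± 12.1, and 13.0, 4.1, 1.3 and 9.4 in IVF blastocysts, a mean of 6.95 ± 5.25 (SD, n = 4 each). The groups did not overlap, and the log2 difference was 3.38 ± 0.50 (SE), the 10th largest toward scNT. Leaving out 1 library at a time gave 2.89 to 3.76. This gene entered the fit through its scNT libraries, where it is high, with 1 IVF library at 10 or more, so no p is given.

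ENSBTAG00000004891 held 159.1, 175.0, 150.2 and 157.6 normalized counts in scNT blastocysts, a mean of 160 ± 10.4, against 106.0, 75.5, 91.4 and 114.5 in IVF blastocysts, a mean of 96.8 ± 17.1 (SD, n = 4 each). The groups did not overlap. The log2 difference was 0.74 ± 0.17 (SE; limma adjusted p = 0.0252). The call was lost in 5 of the 8 fits that left out 1 library. Leaving out IVF replicate 2 gave a limma adjusted p of 0.0817, and IVF replicate 3 gave 0.0691. Leaving out scNT replicate 1, 3 or 4 gave 0.0708, 0.0581 and 0.0626 (limma adjusted p). The call held without IVF replicate 1 (0.0355), IVF replicate 4 (0.0179) or scNT replicate 2 (0.0459, limma adjusted p). The difference itself moved between 0.63 and 0.82.

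ENSBTAG00000046089 did not pass the test in blastocysts with all libraries. The scNT blastocysts held 192.2, 354.6, 277.4 and 181.7 normalized counts, a mean of 251 ± 81.0, and IVF blastocysts 68.8, 63.3, 53.3 and 328.4, a mean of 128 ± 133 (SD, n = 4 each). IVF replicate 4 lay within the scNT range and the other 3 IVF libraries lay below all scNT libraries. The log2 difference was 1.36 (95% interval -0.07 to 2.79, limma adjusted p = 0.252). Without IVF replicate 4, a choice made after seeing the data, it was 1.96, with a limma adjusted p = 0.00163. This was the only 1 of the 8 fits leaving out 1 library that called the gene. The others gave limma adjusted p values of 0.342 to 0.458. Without that library the IVF mean became 61.8 ± 7.86 (SD, n = 3), which the scNT mean exceeded 4.07 times instead of 1.96 times. In replicate 4 the lists of rising and falling genes had means of 8.83 and 4.94, against 8.70 to 8.78 and 4.79 to 5.24 in the other IVF blastocysts.

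Every scNT library lay above every IVF library for ENSBTAG00000012363 and ENSBTAG00000004891 in blastocysts, which held for 6.04% of all genes tested there. At this stage the falling list had a median scNT minus IVF difference of -0.34 and the rising list 0.12, smaller than the -0.99 and 0.42 of morulae. The part of this remaining shift in the 3 genes was not tested.

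**Figure D3:**
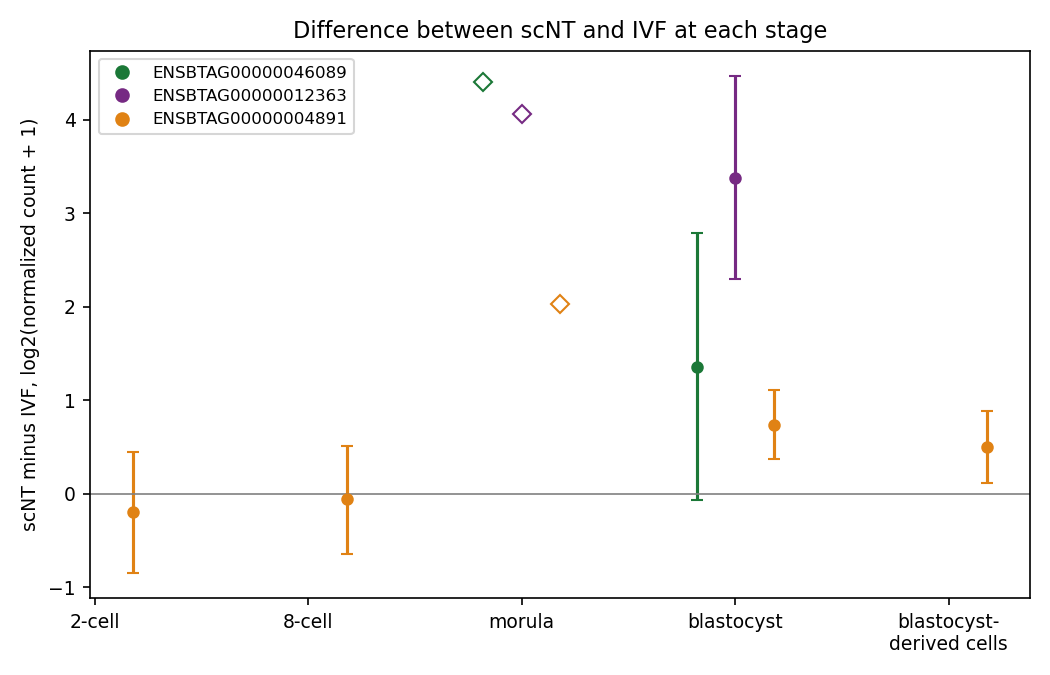
scNT minus IVF difference in log2(normalized count + 1) at each stage; filled points with bars are limma estimates with 95% intervals, open diamonds are morula differences, which chose the genes and carry no interval. ENSBTAG00000012363 keeps a difference of 3.38 in blastocysts, while the interval of ENSBTAG00000046089 reaches from -0.07 to 2.79. ENSBTAG00000012363 entered the blastocyst fit through its scNT libraries, where it is high, so nothing is read from its interval.

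The scNT morulae also stood above IVF blastocysts in all 3 genes, given here as values because the scNT morulae chose them. ENSBTAG00000046089 was 3.26 times as abundant in scNT morulae as in IVF blastocysts, ENSBTAG00000012363 16.9 times and ENSBTAG00000004891 1.62 times. Without IVF blastocyst replicate 4, a choice made after seeing the data, the first of these was 6.78. None of the 3 genes had an IVF blastocyst library as high as its lowest scNT morula library. So pools of scNT morulae from day 6 had more normalized counts of each gene than pools of IVF blastocysts from day 8.

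The morula level as a percent of the blastocyst level is given as a description, since high scNT and low IVF morula values chose the genes. In scNT embryos the morula mean was 167% of the blastocyst mean for ENSBTAG00000046089, 176% for ENSBTAG00000012363 and 97.5% for ENSBTAG00000004891. In IVF embryos it was 16.1%, 202% and 39.4%. The 202% rests on IVF morula replicate 3, without which the IVF morula mean was 2.67 against 6.95 in IVF blastocysts. The 16.1% rests in part on IVF blastocyst replicate 4, without which the means were 20.6 and 61.8. The scNT morula and blastocyst libraries did not overlap for ENSBTAG00000012363 and did for the other 2 genes. ENSBTAG00000046089 and ENSBTAG00000004891 had their highest mean of IVF embryos in blastocysts.

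The step from the 8-cell embryo to the blastocyst, which leaves the morula libraries out, was tested in each method. ENSBTAG00000046089 was 7.58 ± 0.43 log2 units higher in scNT blastocysts and 5.60 ± 0.64 higher in IVF blastocysts (SE), and ENSBTAG00000012363 was 5.48 ± 0.56 higher in scNT blastocysts. These genes entered the fits through their blastocyst libraries alone, where they are high, so a difference was bound to appear and no p is given. With 2 to 5 reads at the 8-cell stage, these sizes also depend on the added count of 1. ENSBTAG00000012363 was too low for a fit in IVF embryos, where 15 reads in blastocysts stood against 2 at the 8-cell stage. ENSBTAG00000004891 rose by 1.85 ± 0.20 in scNT (limma adjusted p = 9.13e-06) and by 1.05 ± 0.25 in IVF embryos (limma adjusted p = 0.00279). Limma called 38.9% of all genes higher in the scNT step and 34% in the IVF step, so a rise over this interval is common.

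Whether the step differed between methods was tested as an interaction, which neither ENSBTAG00000046089 nor ENSBTAG00000004891 passed. The scNT step exceeded the IVF step by 3.12 log2 units for ENSBTAG00000012363. This gene entered the fit through its scNT blastocyst libraries, where it is high, with 1 IVF library at 10 or more. No p or interval is given for it. The excess was 1.98 for ENSBTAG00000046089 (95% interval 0.28 to 3.68, limma adjusted p = 0.205) and 0.80 for ENSBTAG00000004891 (95% interval 0.20 to 1.41, limma adjusted p = 0.162). The 1.98 depends on the added count, since 8-cell embryos held 5 reads in IVF and 2 in scNT. It was 1.36 with a pseudocount of 10. Limma called 1.04% of 14460 genes. The excess for ENSBTAG00000012363 was 2.15 with a pseudocount of 10, and 2.35 in edgeR and 2.19 in DESeq2 on recovered reads. Its side of the threshold changed with the settings, so nothing is read from it.

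In blastocyst-derived cells 2 of the 3 genes were at or near 0. ENSBTAG00000046089 held 0 reads over the 4 IVF libraries, which allows up to 0.0901 RPM, and 1 read over the 4 scNT libraries. It was at least 142-fold lower in the IVF cells than in IVF blastocysts, taking 3 reads over the group as the floor. Without IVF blastocyst replicate 4 this bound was 73-fold, from 110 of the 285 blastocyst reads. In scNT the ratio of blastocysts to derived cells was 849 (counting interval 152 to 33584). As in the 8-cell comparison, the gene reached the fits through its blastocyst libraries alone, so no p is given.

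ENSBTAG00000012363 held 0 reads in the IVF-derived and 1 read in the scNT-derived cells. Its ratio of pooled reads between scNT blastocysts and scNT-derived cells was 227 (counting interval 40.3 to 9022), and no p is given for the same reason. IVF blastocysts held 15 reads. Limma called 34.3% of all genes lower in IVF-derived and 34.1% in scNT-derived cells than in blastocysts, the latter 24.7% with equal library totals, where the share of higher genes among scNT calls went from 49.1% to 62.9%.

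ENSBTAG00000004891 stayed on in the derived cells of both methods. It held 103.9, 93.7, 98.7 and 102.0 normalized counts in scNT-derived cells, a mean of 99.6 ± 4.47, and 73.1, 69.6, 79.3 and 60.2 in IVF-derived cells, a mean of 70.5 ± 7.98 (SD, n = 4 each). Every scNT library was above every IVF library, as for 4.35% of all genes tested. The difference of 0.50 log2 units did not pass the test (95% interval 0.12 to 0.88, limma adjusted p = 0.231), and limma called 1.34% of all genes. Compared with blastocysts it fell by 0.68 ± 0.14 in scNT-derived cells (SE; limma adjusted p = 0.00128). With equal library totals this change was -0.40 (limma adjusted p = 0.0259). In IVF-derived cells the change was -0.44 (95% interval -0.89 to 0.01, limma adjusted p = 0.0762), which was -0.55 without IVF blastocyst replicate 2 (limma adjusted p = 0.0432).

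The order of the group means sets the 3 genes apart from each other. For ENSBTAG00000046089 it ran from scNT morulae to scNT blastocysts, IVF blastocysts and IVF morulae. The first 3 overlapped with their neighbours, IVF blastocysts lay above IVF morulae, and IVF morulae lay above every library of the remaining 8 groups. For ENSBTAG00000012363 the order was scNT morulae, scNT blastocysts, IVF morulae and IVF blastocysts, and the first 2 overlapped with no other group. For ENSBTAG00000004891 scNT blastocysts, scNT morulae and fibroblasts came first and overlapped from neighbour to neighbour, above all libraries of the other groups. In that gene the scNT morulae thus stood within the range of the fibroblast libraries, 156 ± 6.52 (SD, n = 3) against 140 ± 20.0 (SD, n = 4) normalized counts.

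Genes with the most similar course were sought among the 13096 genes with a mean of at least 50 in some group, by Pearson's r of log2 values over the 47 libraries. These r are descriptions, since libraries of a group share their stage. ENSBTAG00000046089 was most like ENSBTAG00000027775 (r = 0.955) and ENSBTAG00000004950 (r = 0.947). ENSBTAG00000012363 was most like ENSBTAG00000004519 (r = 0.974) and ENSBTAG00000027775 (r = 0.908), with ENSBTAG00000046089 next (r = 0.907). ENSBTAG00000004891 was most like ENSBTAG00000013568 (r = 0.884) and ENSBTAG00000022796 (r = 0.881). The course of ENSBTAG00000004891 was thus less like that of the other 2 genes (r = 0.532 and 0.588) than theirs were like each other (r = 0.907).

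Among the likest genes only ENSBTAG00000004950 lacked the gap between methods in morulae, whose libraries also enter r. ENSBTAG00000027775 held 47.3 to 96.9 normalized counts in scNT and 17.8 to 28.3 in IVF morulae. ENSBTAG00000013568 held 134.5 to 201.0 in scNT and 77.0 to 105.5 in IVF morulae. ENSBTAG00000004519 had 76.4 ± 19.1 normalized counts in scNT morulae (SD, n = 3) and 3.1, 0.0, 23.5 and 0.9 in IVF morulae 1 to 4. Replicate 3 was thus the high IVF morula library for this gene as for ENSBTAG00000012363. ENSBTAG00000004950 appeared at the morula with 1034 ± 531 (SD, n = 3) in scNT and 769 ± 383 (SD, n = 4) in IVF morulae, ranges that overlapped. ENSBTAG00000022796 had 333 ± 27.7 (SD, n = 3) in scNT and 26.0 ± 13.1 (SD, n = 4) in IVF morulae, with 620 ± 420 in fibroblasts (SD, n = 4).

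Other genes raised in scNT morulae give the setting for the blastocyst results. Limma called 190 genes at least 2-fold higher in scNT morulae, and 174 of these, leaving out the 3 genes, were tested in blastocysts. Of the 174, 58 (33.3%) were called higher in scNT blastocysts and 0 lower. These 58 made up 18.3% of the 317 other genes called higher there. The median blastocyst difference of the 174 was 0.48 log2 units, against -0.01 for all genes tested. A higher level in scNT blastocysts was therefore found in a part of the genes of this kind and is not particular to the 3 genes. Whether the 3 genes differ from each other in it was not tested. ENSBTAG00000046089 was not called there with all libraries, but was called with IVF replicate 4 left out. The 3.38 of ENSBTAG00000012363 was the 10th largest difference toward scNT of all genes tested. That gene entered the fit through its scNT libraries, where it is high.

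**Figure D4:**
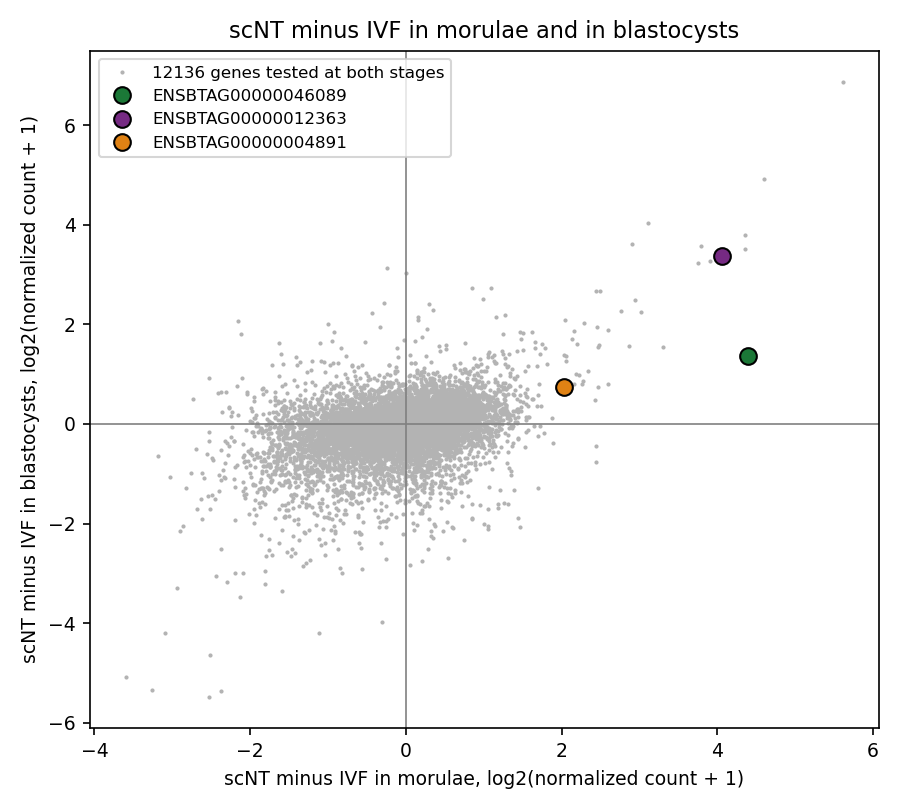
scNT minus IVF difference in log2(normalized count + 1) in morulae (horizontal) and blastocysts (vertical) for the 12136 genes tested at both stages (grey) and the 3 genes (coloured). All 3 lie to the right, where they were chosen; on the vertical axis they lie at 3.38, 1.36 and 0.74.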

How the data were processed

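Libraries were made from RNA above 200 nt with the Ovation SoLo kit and 3 rounds of PCR, per the labels' protocols. The submitters' processing notes list FastQC, MultiQC, STAR, DESeq2 and build UMD3.1. The sources used here do not give what each tool did, the annotation, the strand setting or how reads were counted. The authors deposited 1 signal per gene and library, a normalized read count written with 1 decimal. Within a library the values were whole multiples of 1 step (0.477 to 2.04), and 98.97% to 100% of values up to 100 steps lay within 0.05 of one. In 1 fibroblast library the step was too near 1 to tell reads from rounding. Genes sharing reads with copies or overlapping genes could not be checked without names. None of the marker lists, kept by gene symbol, could be matched to identifiers, so they were not used.

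Genes with at least 10 normalized counts in as many libraries as the smallest group were fitted with limma 3.58.1 (trend, robust) in R 4.3.3 on log2(value + 1), only the groups compared and no replicate block. Tests were two-sided, with Benjamini-Hochberg adjustment over all genes tested and calls at an adjusted p under 0.05. Such differences understate changes of low genes. Alternatives were a pseudocount of 10, no filter, equal library totals, edgeR 4.0.16 and DESeq2 1.42.0 on recovered reads, the replicate number as a block, and leaving out each library. Same-numbered libraries deviated together in the 8-cell comparison of methods (r 0.231 to 0.563 over 4 pairs, other pairs at most 0.213). In the 2-cell comparison their r was 0.118 to 0.683, but other pairs reached 0.548. In the other comparisons not every same-numbered pair deviated together. The fit was tested on simulated data. Named genes were the 3 given and, for each, the 2 with the highest r. The 3 genes and the lists were chosen with earlier results of these data known.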

Additional observations from a re-analysis of the deposited data

Results flagged for a closer look

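Of 16 groups of 4 libraries with a mean of at least 10 normalized counts in 1 of the 3 genes, 3 had a single library far from the others. Chance flags about 1 in 20 where values are normally distributed. The rule was applied to counts without a log, so that rate is only a rough guide and no excess is read from it. Groups with lower means were not tested, because single reads would decide them. ENSBTAG00000046089 stood at 328.4 in IVF blastocyst replicate 4, and the gap to the next library was 0.944 of the range. The same gene stood at 38.6 in IVF morula replicate 1, with a gap of 0.896 of the range. ENSBTAG00000012363 stood at 48.1 in IVF morula replicate 3, with a gap of 0.959 of the range. All 3 were high libraries of IVF embryos, and they were 3 different libraries.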

How the results depend on the processing

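Fits that a gene entered only through the groups where it is high were left aside, which leaves no test of ENSBTAG00000012363. The other test results were compared under a pseudocount of 10, no filter, equal totals, edgeR, DESeq2 and the replicate block. They kept their direction and their side of the threshold, except for 1 uncalled difference that changed sign. The cause was not tested for any change given here. With a pseudocount of 10 the interaction of ENSBTAG00000012363 was 2.15 and its difference between methods in blastocysts was 2.22. The morula differences of ENSBTAG00000046089, ENSBTAG00000012363 and ENSBTAG00000004891 were then 3.86, 2.74 and 1.80. The uncalled difference of ENSBTAG00000004891 between scNT 8-cell embryos and oocytes was -0.06 with equal totals and -0.04 with edgeR and with DESeq2. A threshold of 50 left 1 stage on for ENSBTAG00000046089 in IVF, and 2 (IVF) and 3 (scNT) for ENSBTAG00000004891. Equal totals moved the median of all genes from -0.01 to -0.16 between methods in blastocysts, from -0.04 to -0.38 and from -0.08 to -0.51 in the IVF and scNT steps from 8-cell to blastocyst, and from -0.03 to 0.26 for scNT-derived cells. The number of genes called between methods was 2 (edgeR) and 9 (DESeq2) against 4 in 2-cell embryos. In 8-cell embryos it was 3 (pseudocount 10), 2 (no filter), 1 (equal totals), 378 (DESeq2) and 168 (replicate block) against 0, and in derived cells 455 (DESeq2) and 302 (replicate block) against 166. The interaction had 87 (edgeR) and 637 (DESeq2) against 150. The replicate block changed no call of the 3 genes.

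Leaving out 1 library at a time gave 0 to 8 calls in 2-cell embryos and 0 to 82 in 8-cell embryos (82 without IVF replicate 4). It gave 316 to 860 in blastocysts against 750 (316 without IVF replicate 2) and 80 to 134 in derived cells (80 without IVF replicate 1). It gave 1319 to 2598 between scNT 8-cell embryos and oocytes against 2347 (1319 and 1331 without oocyte replicates 1 and 4), and 35 to 1276 in the interaction (35 without IVF blastocyst replicate 3, 1276 without IVF 8-cell replicate 4). For ENSBTAG00000004891 the log2 difference ran from -0.14 to 0.00 between methods at the 8-cell stage, from -0.02 to 0.12 and from -0.08 to 0.07 between oocytes and IVF or scNT 8-cell embryos, from 0.63 to 0.82 in blastocysts, and from -0.55 to -0.36 for IVF-derived cells. ENSBTAG00000046089 ran from 1.09 to 1.96 in blastocysts, and the interaction of ENSBTAG00000012363 from 2.63 to 3.71. Depth limits ENSBTAG00000046089 and ENSBTAG00000012363 before the morula, where groups held at most 5 reads.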
